A study of Macaca mulatta with 12 samples.

Results

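Expression of the proteasome subunit genes was measured in 12 female rhesus monkeys, in the dorsal raphe, a midbrain nucleus rich in serotonin neurons. Members were all genes whose symbol in the array's annotation is PSMA, PSMB, PSMC, PSMD, PSME, PSMF or PSMG and a number. This rule found 65 probe sets for 32 genes, among 52766 probe sets and 14132 symbols in all. The rule itself used no expression values, though the members were chosen with earlier results of these data known. A further 7 probe sets carry a proteasome symbol together with another gene's and were left out. The symbols PSMA6 and PSMD4 occur on such shared probe sets alone. The 4 groups held 3 animals each. Implants under the skin delivered estrogen, estrogen plus progesterone, progesterone, or placebo for 1 month before tissue was taken, and each Affymetrix rhesus array was hybridised with RNA of 1 monkey. The placebo arrays carry the code OVX in their titles, read here as ovariectomized. The labels of the hormone groups carry no such code, and ages and doses are not among the labels. The progesterone arrays carry the code EP in their titles and P in their descriptions, and were taken as progesterone alone.

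The proteasome is the machine that degrades most proteins a cell has marked with ubiquitin. Its 20S core is a barrel of alpha rings, which gate the entrance, and beta rings, which carry the cutting sites. The 19S particle sits on the ends of the barrel, where a ring of ATPases unfolds the substrate and the other subunits bind and remove ubiquitin. Inducible beta subunits replace the constitutive ones in immune signalling, activators and an inhibitor act on the core, and dedicated chaperones assemble it. Neurons use the proteasome for general protein turnover and for the remodelling of synapses.

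Values are log2 intensity, quantile normalized between arrays. A probe set was tested where its mean over the 12 arrays reached log2 6.31, which 53 of the 65 member probe sets and the brightest probe set of 30 of the 32 genes did. The other genes were PSMB8, with a mean over all arrays of 6.05, and PSMB11. A gene is described by its brightest probe set unless another is named. Tests were made with limma over all 26383 probe sets that reached the limit, and adjusted p-values are Benjamini-Hochberg values over all of them. A probe set was called where this value was under 0.05. Levels are compared between arrays for 1 probe set at a time, since the brightness of different probe sets cannot be compared. In tissue blocks, fewer cells of a type and less RNA per cell cannot be told apart.

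Arrays differed in ways that partly ran with the groups. Along the leading principal component (23.5% of the variance), array 1 of estrogen, of estrogen plus progesterone and of placebo lay between -51.6 and -44.0, and the other arrays between -1.64 and 29.0. The second, with 17.2%, set the 3 progesterone arrays (-54.5 to -14.1) apart from the rest (0.50 to 20.4). The 3′ minus 5′ signal of the EF1A control probe sets, a sign of RNA quality, was -0.37 to -0.31 on the log2 scale on the progesterone arrays and -0.08 to 0.74 on the others. Of 8 listed serotonin neuron markers, 5 (TPH2, FEV, SLC18A2, GATA2 and GATA3) were on the array, and all 5 were bright enough to test. Their summed intensity was 2809 to 3749 in estrogen, 2585 to 3244 in estrogen plus progesterone, 1970 to 2507 in progesterone and 2570 to 3660 in placebo arrays. None of the 5 was called in progesterone against placebo, where the fitted differences were all below 0 with a median of -0.46. The 3 tested markers of ependyma and choroid plexus were below 0 there as well, with a median of -0.34. In estrogen against placebo, 5 of 6 tested markers of cerebellar neurons were above 0, with a median of 0.51, and 4 of 5 of oligodendrocytes were below 0, with a median of -0.31, and none was called. The summed intensity of the cerebellar markers was 1791 to 3924 in estrogen and 1846 to 2130 in placebo arrays, and that of the oligodendrocyte markers 19060 to 21220 in estrogen and 21470 to 22180 in placebo arrays. The mean deviation of the cerebellar markers from their own means was -0.17, 0.86 and 0.02 on estrogen arrays 1, 2 and 3. On the placebo arrays it was -0.09, -0.25 and -0.23. The second estrogen array thus stood far above the others of its group. The part of these shifts in the results below was not tested.

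PSMC4 encodes an ATPase of the 19S ring. Of the 30 genes it was the only one whose 9 hormone arrays all lay above the 3 placebo arrays, and for 0 genes did all 9 lie below. Over all probe sets tested, 0.269% lay above and 0.265% below in this way. The deposited intensities of its brightest probe set were 631.2, 609.2 and 729.0 in estrogen, 625.0, 521.0 and 716.0 in estrogen plus progesterone, 708.6, 761.1 and 593.7 in progesterone, and 380.2, 447.3 and 484.5 in placebo animals. The highest placebo animal thus lay below the lowest hormone-treated one, the second array of the combined treatment. After normalization the log2 levels averaged 9.34 ± 0.11 in estrogen, 9.27 ± 0.24 in estrogen plus progesterone, 9.43 ± 0.16 in progesterone and 8.76 ± 0.17 in placebo arrays (SD, n = 3 each).

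Against placebo, PSMC4 was higher by 0.59 in estrogen (SE 0.17, 95% interval 0.22 to 0.95). It was higher by 0.51 in estrogen plus progesterone (0.15 to 0.88), a fold of 1.43. In progesterone the difference was 0.68 (0.31 to 1.04), a fold of 1.60. None of the 3 passed the test after adjustment over all probe sets: the limma adjusted p was 0.99968 for estrogen, 0.998818 for estrogen plus progesterone and 0.196178 for progesterone, at unadjusted p-values of 0.00454, 0.00995 and 0.00174. All 3 share the placebo arrays, so they are not separate pieces of evidence. With progesterone present, the difference that estrogen made was lower by 0.75 than without it (interaction of -0.75, SE 0.24, limma adjusted p = 0.70). The hormone groups lay close together, at -0.07 for estrogen plus progesterone against estrogen (-0.44 to 0.29) and -0.16 for estrogen plus progesterone against progesterone (-0.53 to 0.20).

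**Figure D1:**
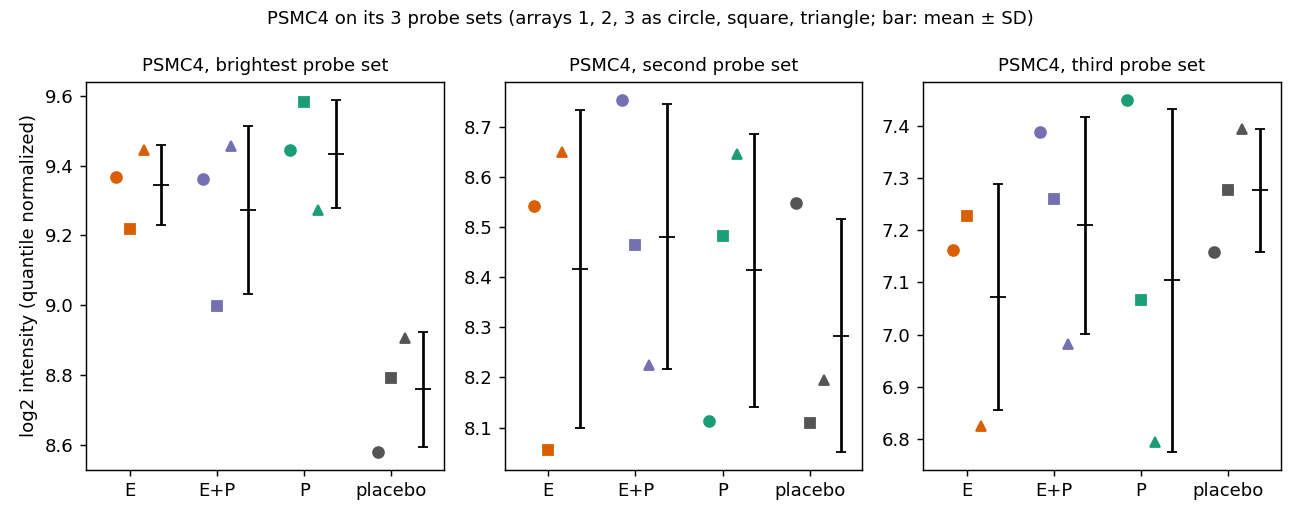
Log2 intensity of PSMC4 (vertical axis) on its 3 probe sets, one panel each, in estrogen (E), estrogen plus progesterone (E+P), progesterone (P) and placebo animals. Points are single arrays and bars the mean ± SD of 3. On the brightest probe set the 9 hormone arrays lie above the 3 placebo arrays, and on both other probe sets the groups overlap.

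The other probe sets of PSMC4 did not share this pattern. On the second, the arrays read 8.54, 8.05 and 8.65 in estrogen, 8.75, 8.46 and 8.22 in estrogen plus progesterone, 8.11, 8.48 and 8.64 in progesterone, and 8.55, 8.11 and 8.19 in placebo animals. Its difference from placebo was 0.13 in estrogen, 0.20 in estrogen plus progesterone and 0.13 in progesterone, each with an SE of 0.22. On the dimmest, the difference was -0.20 in estrogen, -0.07 in estrogen plus progesterone and -0.17 in progesterone, each with an SE of 0.20. Both sets of values overlapped between all groups. The brightest probe set has a name ending in s_at, which Affymetrix gives to probe sets that match more than 1 transcript.

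Across the family, 0 of the 53 tested probe sets were called in any of the 6 comparisons of groups, for either hormone's main effect, for their interaction, or in the moderated F test over the 4 groups. In estrogen against placebo, 19 of the 30 genes had a fitted difference above 0 and 11 below, with a median of 0.07, where 48.7% of all probe sets were above 0 and the median was -0.01 over all 9305 named genes tested. With median alignment 24 were above 0 and 6 below, at a median of 0.11, beside 0.03 for all named genes. PSMC4 was the 1 gene with an unadjusted limma p under 0.05, where 2.65% of all probe sets had one in either direction. All 3 estrogen arrays lay above placebo for PSMC4 and PSME2 and below it for PSMC3, against 3.56% above and 3.98% below over all probe sets. By the adjusted p, 0% of all probe sets were called in this comparison.

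In estrogen plus progesterone against placebo, 17 genes were above 0 and 13 below, with a median of 0.03, where 47.9% of all probe sets were above 0 and the median was -0.01 over all named genes. With median alignment 14 were above 0 and 16 below, at a median of -0.004, beside -0.05 for all named genes. Again PSMC4 was the 1 gene with an unadjusted p under 0.05, against 3.85% of all probe sets. The arrays did not overlap for PSMC4 and PSMD1, both above placebo, and for 0 genes below it (4.68% and 5.84% of all probe sets). Here too 0% of all probe sets were called.

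With progesterone alone the directions were mixed. Of the 30 genes, 13 were above 0 and 17 below in progesterone against placebo, where 46.7% of all probe sets were above 0. The median was -0.04 for the 30 genes and -0.04 for all named genes. The unadjusted p was under 0.05 for 5 genes (PSMC4, PSMD1 and PSMD9 above placebo, PSMB10 and PSMF1 below), against 9.87% of all probe sets. Arrays did not overlap for 5 genes above placebo (PSMC4, PSMD1, PSMD7, PSMD9 and PSMB1) and 3 below it (PSMB10, PSMF1 and PSMD11), against 7.41% and 7.86% of all probe sets. By the adjusted p, 0.117% of all probe sets were called higher and 0.0152% lower, and none of these was a proteasome gene. Direction over the family depended on the scaling. With arrays aligned on their medians in place of quantile normalization, 5 genes were above 0 and 25 below, as the median of all named genes moved to -0.15 and that of the proteasome genes to -0.19.

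**Figure D2:**
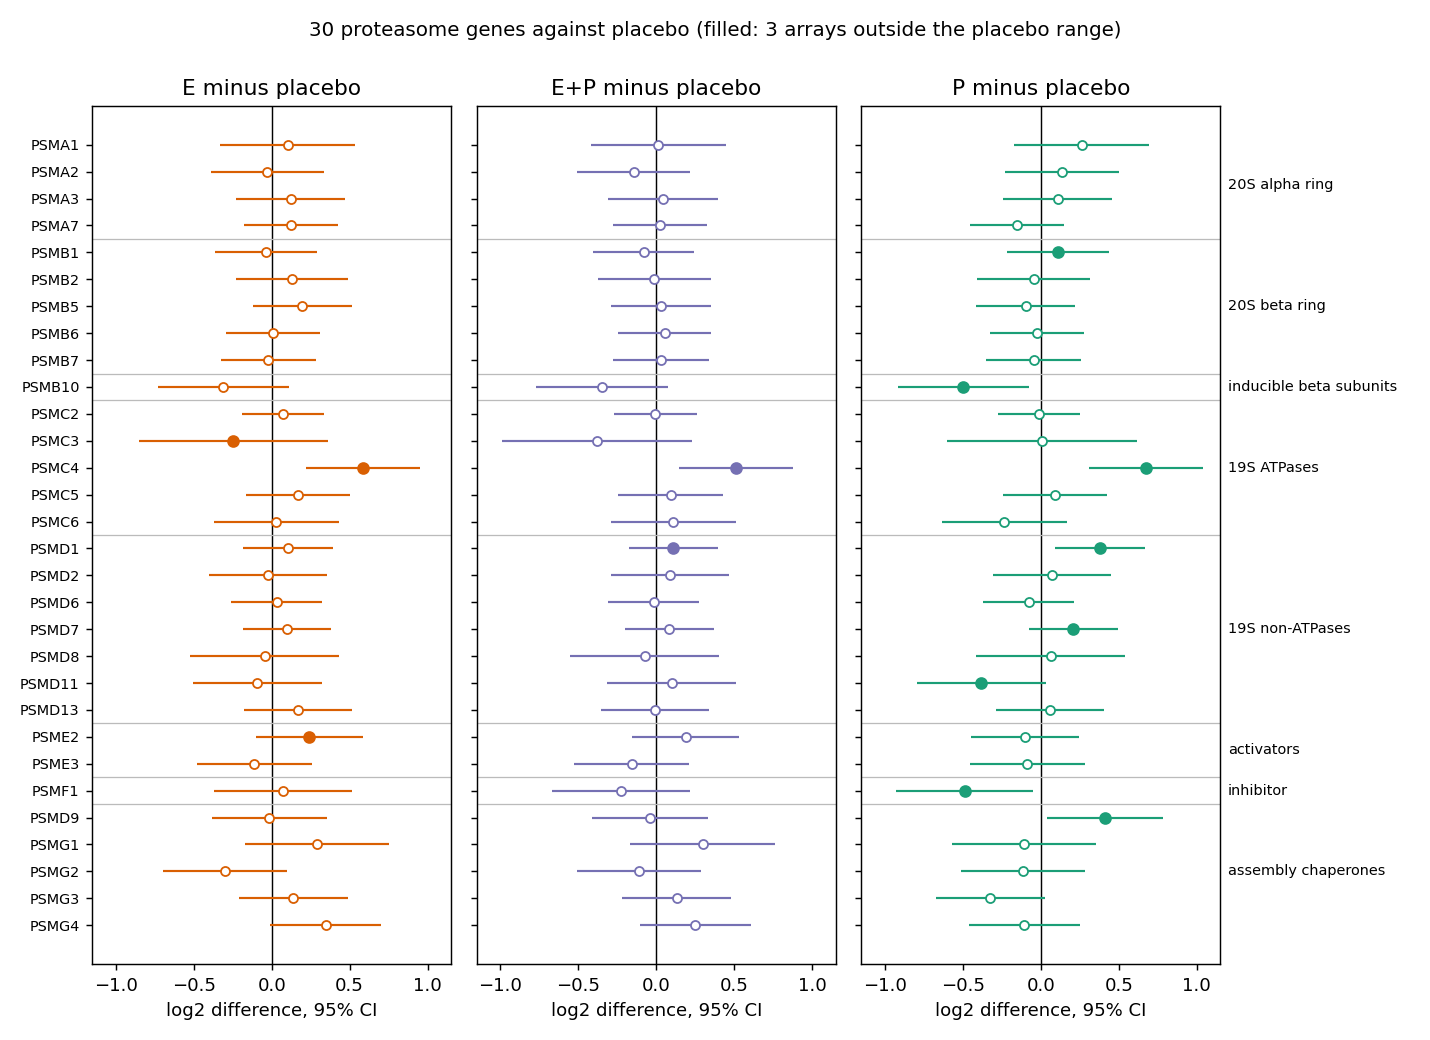
Log2 difference from placebo (horizontal axis) of the 30 tested proteasome genes, grouped by role, in estrogen (left), estrogen plus progesterone (middle) and progesterone (right). Points are limma estimates from 3 animals against 3, lines their 95% confidence intervals, and filled points mark genes whose 3 arrays all lie outside the placebo range. PSMC4 is the only gene filled in all 3 panels, and its intervals start at 0.22, 0.15 and 0.31.

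The constitutive 20S core gave small differences on the brightest probe sets. Of its 4 alpha subunits (PSMA1, PSMA2, PSMA3 and PSMA7), 3 were above placebo in each hormone group, with differences of -0.03 to 0.13 in estrogen, -0.14 to 0.04 in estrogen plus progesterone and -0.15 to 0.26 in progesterone. Under median alignment PSMA2 and PSMA3 turned below 0 in progesterone, to -0.02 and -0.05. PSMA1 gave the upper end in progesterone, where the arrays read 10.45, 10.49 and 11.15, against 10.44, 10.58 and 10.28 in placebo. A single array, the third progesterone one, stood high, and the groups overlapped. Without it the difference was 0.03. Other probe sets spread wider in progesterone. Over the 5 tested probe sets of PSMA2 the difference from placebo ran from -0.22 to 0.37. The second probe set gave 0.63 for PSMA7, -0.0006 for PSMA1 and -0.09 for PSMA3.

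The core's beta ring had 5 constitutive members on the array. PSMB5, PSMB6 and PSMB7 carry the chymotrypsin-like, caspase-like and trypsin-like sites, while PSMB1 and PSMB2 have no site of their own. Their differences from placebo lay between -0.04 and 0.20 in estrogen, -0.08 and 0.05 in estrogen plus progesterone, and -0.10 and 0.11 in progesterone. PSMB5 had the upper value in estrogen, 0.20 ± 0.15 (SE), at levels of 10.75, 10.91 and 11.03, against 10.74, 10.55 and 10.81 in placebo, which overlap. The second probe set of PSMB5 gave -0.004 in estrogen, -0.14 in estrogen plus progesterone and -0.49 in progesterone. All its progesterone arrays lay below placebo. PSMB1 read 10.68, 10.75 and 10.67 in progesterone, against 10.53, 10.61 and 10.62 in placebo. Those arrays did not overlap, at a difference of 0.11 ± 0.15 (SE) that changed sign, to -0.05, under median alignment. The second probe set of PSMB1 gave -0.49 in estrogen, -0.24 in estrogen plus progesterone and -0.15 in progesterone. All its estrogen arrays lay below placebo. PSMB7 had the tightest placebo values of the 30 brightest probe sets, 10.66, 10.67 and 10.66.

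PSMB10 encodes an inducible beta subunit, the trypsin-like site of the immunoproteasome. It was the only inducible subunit bright enough to test, and it lay below placebo in all 3 hormone groups. Its levels were 9.26, 8.81 and 9.21 in estrogen, 8.97, 8.97 and 9.22 in estrogen plus progesterone, 8.91, 8.92 and 8.89 in progesterone, and 9.58, 8.998 and 9.63 in placebo. The progesterone arrays were closely grouped and all below placebo, while the second placebo array lay far below its group and within the range of the other hormone groups. The difference from placebo was -0.31 ± 0.19 in estrogen, -0.35 ± 0.19 in estrogen plus progesterone and -0.50 ± 0.19 in progesterone (SE). In progesterone the interval was -0.92 to -0.07, at an unadjusted p of 0.0249 and a limma adjusted p of 0.432. Its second probe set was lower too, by -0.46, -0.47 and -0.33 in estrogen, estrogen plus progesterone and progesterone, with overlapping arrays in each.

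PSMB8, another inducible subunit, was too dim to test, at 5.96 ± 0.22 in estrogen, 5.82 ± 0.10 in estrogen plus progesterone, 6.21 ± 0.48 in progesterone and 6.19 ± 0.29 in placebo arrays (SD, n = 3 each). PSMB11, known from the thymus, was dimmer still, and its arrays spanned 3.74 log2 units. Of a list of 9 class I antigen presentation and interferon genes, which act with the inducible subunits, 6 were bright enough to test and 0 were called. Of the 6, 3 were above placebo in estrogen, 4 in estrogen plus progesterone and 3 in progesterone, with medians of -0.03, 0.06 and 0.05. TAP1, a peptide transporter subunit, differed from placebo by -0.22 in estrogen, -0.19 in estrogen plus progesterone and -0.52 in progesterone, and by 0.33 in estrogen without the first estrogen array and -0.26 in progesterone without the third progesterone array. Its partner TAP2 differed by -0.08, 0.05 and 0.27 in the same order. TAPBP, which holds class I molecules at the transporter, differed by 0.16, 0.22 and -0.03, ERAP1, a peptide-trimming enzyme, by 0.01, 0.08 and 0.19, and IRF1, an interferon-response factor, by 0.03, 0.10 and -0.07. B2M, the light chain of class I molecules, differed by -0.19, -0.10 and 0.14.

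Of the 4 ATPases of the 19S ring besides PSMC4, PSMC2 had the narrowest range of the 30 brightest probe sets, with all 12 arrays within 0.17 log2 units, while its other probe set spanned 0.90. PSMC5 was above placebo by 0.17 in estrogen, 0.09 in estrogen plus progesterone and 0.09 in progesterone, each with an SE of 0.15, and the last was -0.06 under median alignment. The other tested probe set of PSMC5 gave 0.18, 0.31 and -0.11 in the same order, and its arrays spanned 1.51 log2 units. PSMC6 differed by 0.03, 0.11 and -0.23, with an SE of 0.18. PSMC3 had the widest range of the 30, 1.38. Its levels were 8.81, 9.07 and 9.21 in estrogen, 8.10, 9.25 and 9.33 in estrogen plus progesterone, 9.49, 9.18 and 9.18 in progesterone, and 9.35, 9.24 and 9.23 in placebo. The first array of the combined treatment lay more than 1 log2 unit below the others of its group, and the estrogen arrays were all below placebo, the first by the widest gap. The difference in estrogen was -0.25 ± 0.28 (SE). It was -0.14 without the first estrogen array and -0.10 without the first arrays of the estrogen, estrogen plus progesterone and placebo groups.

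Among the 7 tested non-ATPases of the 19S particle, PSMD1, the large scaffold subunit, had its upper values in progesterone. Its levels were 10.64, 10.51 and 10.57 in estrogen, 10.56, 10.61 and 10.57 in estrogen plus progesterone, 10.92, 10.92 and 10.71 in progesterone, and 10.34, 10.53 and 10.54 in placebo. Every progesterone array lay above all 9 others. Against placebo the difference was 0.38 in progesterone (SE 0.13, 0.09 to 0.67), a fold of 1.30, with a limma adjusted p of 0.374. It was 0.10 in estrogen and 0.11 in estrogen plus progesterone, both with an SE of 0.13. The value in progesterone was 0.22 under median alignment. The gene's other probe set gave -0.14 in progesterone, with all 3 arrays below placebo, and 0.17 in estrogen and 0.10 in estrogen plus progesterone.

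PSMD11, a subunit of the lid, had its lower values in progesterone. The arrays read 8.96, 8.68 and 8.77 in estrogen, 8.87, 9.03 and 9.08 in estrogen plus progesterone, 8.77, 8.71 and 8.06 in progesterone, and 8.87, 8.86 and 8.95 in placebo. The third progesterone array stood well below all others. The difference from placebo was -0.38 ± 0.19 in progesterone, -0.09 ± 0.19 in estrogen and 0.10 ± 0.19 in estrogen plus progesterone (SE). Without the third progesterone array the difference in progesterone was -0.15. Its second probe set gave -0.32, -0.16 and 0.10 in those groups. PSMD7, the partner of the deubiquitinating subunit, read 9.65, 9.81 and 9.77 in progesterone against 9.57, 9.50 and 9.53 in placebo, a difference of 0.21 ± 0.13 (SE) without overlap. The other 4 non-ATPases (PSMD2, PSMD6, PSMD8 and PSMD13) lay between -0.08 and 0.17 of placebo in every hormone group.

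PSME2, a subunit of the activator that caps the core in immune responses, had its upper values in estrogen. Its levels were 8.68, 8.56 and 8.56 in estrogen, 8.38, 8.69 and 8.57 in estrogen plus progesterone, 7.997, 8.28 and 8.49 in progesterone, and 8.29, 8.37 and 8.42 in placebo. The estrogen arrays all lay above placebo, and those of the other hormone groups overlapped it. The difference was 0.24 ± 0.16 in estrogen, 0.19 ± 0.16 in estrogen plus progesterone and -0.10 ± 0.16 in progesterone (SE). A second, dimmer probe set of PSME2, with a name ending in s_at, was below placebo in all hormone groups. It read 5.58, 6.67 and 6.51 in estrogen, 6.40, 6.45 and 6.22 in estrogen plus progesterone, 6.34, 6.72 and 6.43 in progesterone, and 7.05, 6.91 and 6.77 in placebo. All 9 hormone arrays lay below placebo there, by -0.66 in estrogen, -0.55 in estrogen plus progesterone and -0.42 in progesterone, each with an SE of 0.25 and none called. Without the first estrogen array the difference in estrogen was -0.32. PSME3, which forms the nuclear activator, differed by -0.11 in estrogen, -0.16 in estrogen plus progesterone and -0.09 in progesterone.

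PSMF1 encodes the proteasome inhibitor. It read 8.11, 7.58 and 7.57 in estrogen, 7.75, 7.22 and 7.39 in estrogen plus progesterone, 7.18, 7.12 and 7.26 in progesterone, and 7.92, 7.67 and 7.44 in placebo. The progesterone arrays were closely grouped below both placebo and estrogen. The difference from placebo was -0.49 in progesterone (SE 0.20, -0.93 to -0.05), a fold of 0.71, with a limma adjusted p of 0.461. It was 0.07 ± 0.20 in estrogen and -0.23 ± 0.20 in estrogen plus progesterone (SE). Of its 3 other tested probe sets, the values in progesterone were -0.45, -0.32 and 0.13. Without the second progesterone array the -0.45 was -0.11.

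**Figure D3:**
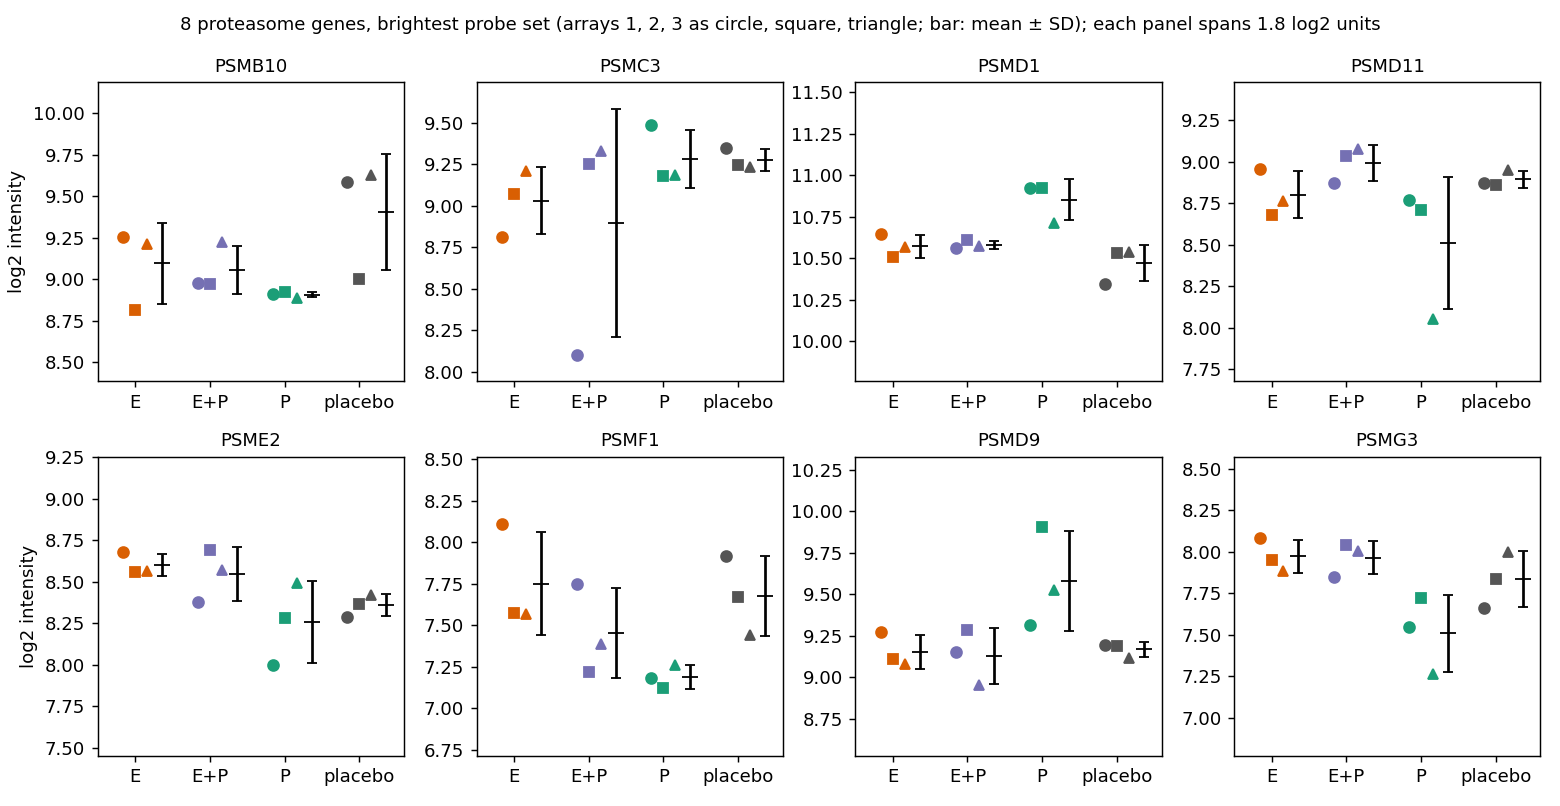
Log2 intensity (vertical axis, each panel spanning 1.8 log2 units) of 8 proteasome genes in estrogen (E), estrogen plus progesterone (E+P), progesterone (P) and placebo animals. Points are single arrays and bars the mean ± SD of 3. The 3 progesterone arrays lie above all placebo arrays for PSMD1 and PSMD9 and below them for PSMB10, PSMD11 and PSMF1, and single low arrays stand out for PSMC3 and PSMD11.

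Of the 5 assembly chaperones, 3 had an unadjusted p under 0.05 for the main effect of estrogen. PSMG1 and PSMG2 act as a pair, and so do PSMG3 and PSMG4, in building the alpha ring, while PSMD9 helps to assemble the ATPases. The main effect of estrogen, which sets the 6 arrays with estrogen against the 6 without, was 0.35 ± 0.12 for PSMG4, 0.35 ± 0.15 for PSMG1 and 0.30 ± 0.11 for PSMG3 (SE). With PSME2, at 0.27 ± 0.11, 4 of the 30 genes had such a p, all above 0, against 3.81% of all probe sets higher and 3.82% lower. The lowest limma adjusted p of the 4 was 0.596. Other tested probe sets of these genes gave a main effect of -0.03 ± 0.14 for PSMG1 and of -0.40 ± 0.18 for PSME2. On the brightest probe sets, PSMG2 was at -0.15 and PSMD9 at -0.23. The gene ID of this PSMG2 probe set was not found in RefSeq, and the annotation's symbol was kept. The other PSMG2 probe set, whose gene ID was found, was too dim to test, at a mean of 5.26. The second probe sets of PSMG3 and PSMG4 were too dim to test. That of PSMG3 averaged 6.02 in estrogen, 6.32 in estrogen plus progesterone, 6.02 in progesterone and 6.66 in placebo. All its arrays lay below placebo in every hormone group, with the third progesterone array at 5.01. That of PSMG4 averaged 6.78, 6.14, 6.43 and 5.72 in the same order, with the first placebo array at 4.09.

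The arrays of PSMG3 read 8.08, 7.95 and 7.89 in estrogen, 7.85, 8.04 and 8.01 in estrogen plus progesterone, 7.54, 7.72 and 7.26 in progesterone, and 7.66, 7.84 and 8.002 in placebo. Both groups with estrogen lay above progesterone without overlap, by 0.46 ± 0.16 in estrogen and 0.45 ± 0.16 in estrogen plus progesterone (SE), with limma adjusted p-values of 0.390 and 0.319. They overlapped placebo, at 0.14 and 0.13. PSMG4 read 7.62, 7.70 and 7.93 in estrogen, 7.62, 7.52 and 7.83 in estrogen plus progesterone, 7.24, 7.25 and 7.39 in progesterone, and 7.25, 7.67 and 7.29 in placebo. It too was above progesterone in both groups with estrogen, by 0.45 ± 0.16 and 0.36 ± 0.16, and the second placebo array lay among the estrogen-treated ones.

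PSMD9 had its upper values in progesterone. Its levels were 9.27, 9.11 and 9.08 in estrogen, 9.15, 9.29 and 8.95 in estrogen plus progesterone, 9.31, 9.90 and 9.53 in progesterone, and 9.20, 9.19 and 9.12 in placebo. All progesterone arrays lay above the other 9, and the second stood highest. The difference from placebo was 0.41 ± 0.17 in progesterone (limma adjusted p = 0.459), -0.01 in estrogen and -0.04 in estrogen plus progesterone. Without the second progesterone array the difference in progesterone was 0.25. Both dimmer probe sets of PSMD9 gave -0.07 in progesterone. The main probe set has a name ending in s_at, and one of the dimmer ones was made from the same design sequence.

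When the hormone groups were set against each other, the calls over all probe sets were again few and held 0 proteasome genes. In estrogen plus progesterone against progesterone, 18 genes were above 0 and 12 below, with a median of 0.01, where 51.1% of all probe sets were above 0. With median alignment 20 were above 0 and 10 below, at a median of 0.13, beside 0.10 for all named genes. An unadjusted p under 0.05 was found for 4 genes, PSMG3, PSMD11 and PSMG4 above and PSMD9 below, against 11.4% of all probe sets. Arrays did not overlap for 4 genes above and 2 below, against 8.40% and 8.60% of all probe sets, while 0.0152% were called higher and 0.0682% lower. PSMD11 had the upper value, 0.48 ± 0.19 (SE, limma adjusted p = 0.362), and 0.25 without the third progesterone array. PSMD9 had the lower value, -0.45 ± 0.17 (limma adjusted p = 0.345), and -0.29 without the second progesterone array.

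In estrogen against progesterone, 18 genes were above 0 and 12 below, with a median of 0.06, where 51.4% of all probe sets were above 0. The unadjusted p was under 0.05 for PSMG3, PSMF1 and PSMG4 above and PSMD9 below, against 9.85% of all probe sets. Arrays did not overlap for 7 genes above (PSMA7, PSMB5, PSMC2, PSME2, PSMF1, PSMG3 and PSMG4) and for PSMD1 and PSMD9 below, against 7.45% and 6.65% of all probe sets, and 0.0227% were called higher and 0.110% lower. PSMF1 differed by 0.56 ± 0.20 (SE, adjusted p = 0.415 by limma) and PSMD1 by -0.28 ± 0.13. With median alignment the family stood at 26 above and 4 below, with a median of 0.27, while the median of all named genes moved to 0.17. These comparisons share the progesterone arrays.

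The narrowest range of differences lay between estrogen plus progesterone and estrogen alone. In this comparison 8 genes were above 0 and 22 below, at a median of -0.05, where 49.9% of all probe sets were above 0, and all differences lay between -0.30 and 0.19. With median alignment 4 were above 0 and 26 below, at a median of -0.13, beside -0.07 for all named genes. For 0 genes did the arrays separate in either direction, against 4.04% and 4.05% of all probe sets, and 0 genes had an unadjusted p under 0.05, against 2.98%. The main effect of progesterone had an unadjusted p under 0.05 for PSMC4 (0.30 ± 0.12) and PSMF1 (-0.39 ± 0.14), against 3.16% of all probe sets higher and 3.10% lower. For PSMC4 the difference that progesterone made was 0.68 without estrogen and -0.07 with it, and for PSMF1 -0.49 and -0.30. For the interaction, PSMC4 was the 1 gene, on the lower side, against 3.21% of all probe sets lower and 3.18% higher. In the F test over the 4 groups PSMC4 and PSMG3 had an unadjusted p under 0.05, against 7.54% of all probe sets, of which 0.0758% were called.

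The shift of the family as a whole was read from single arrays. For each array the median deviation of the 30 genes from their own means was 0.063, -0.006 and 0.078 in estrogen, -0.061, 0.029 and 0.061 in estrogen plus progesterone, -0.071, 0.045 and -0.045 in progesterone, and -0.052, -0.014 and -0.018 in placebo. The group values were 0.045 ± 0.045, 0.010 ± 0.063, -0.024 ± 0.061 and -0.028 ± 0.021 in that order (SD, n = 3 each). All 3 estrogen arrays lay above the 3 placebo arrays, by as little as -0.006 against -0.014. The values overlapped between all hormone groups, and the placebo arrays lay within the range of estrogen plus progesterone and of progesterone. The first estrogen array held the highest value for 8 of the 30 genes, and the third progesterone array the lowest for 7.

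**Figure D4:**
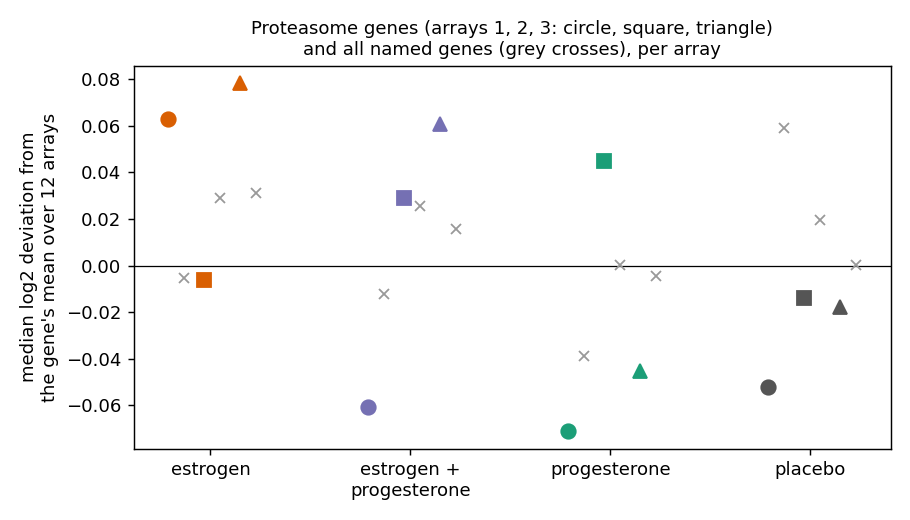
Median log2 deviation of the 30 proteasome genes from each gene's mean over the 12 arrays (vertical axis), per array and group, with arrays 1, 2 and 3 as circle, square and triangle. Grey crosses show the same over all named genes. The proteasome values run from -0.071 to 0.078, and each hormone group has arrays on both sides of 0.

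The members varied less than all named genes, and about as much as named genes of like brightness. The range over the 12 arrays had a median of 0.65 log2 units over the 30 genes, beside 0.85 over all named genes and 0.64 over named genes whose mean reached the median mean of the family. The SD within groups had a median of 0.17, beside 0.25 and 0.18. The SE of a difference between groups was 0.12 to 0.28.

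Probe sets of the same gene often disagreed. Of the 30 genes, 16 had more than 1 tested probe set. All probe sets of a gene had the same sign for 11 of the 16 in estrogen against placebo, for 10 in estrogen plus progesterone against placebo and for 5 in progesterone against placebo. PSMA7 was the clearest case. Its brightest probe set read 10.79, 11.17 and 11.05 in progesterone against 11.18, 11.13 and 11.16 in placebo, at -0.15 ± 0.14 (SE). Its second, made from the same design sequence, has a name ending in s_at. This second probe set read 9.63, 9.55 and 9.71 in estrogen, 9.50, 9.78 and 9.83 in estrogen plus progesterone, 9.88, 10.21 and 9.97 in progesterone, and 9.33, 9.43 and 9.42 in placebo, with all 9 hormone arrays above placebo. The difference there was 0.63 ± 0.15 in progesterone, and at a limma adjusted p of 0.168 it had the lowest adjusted p of all member probe sets in that comparison.

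**Figure D5:**
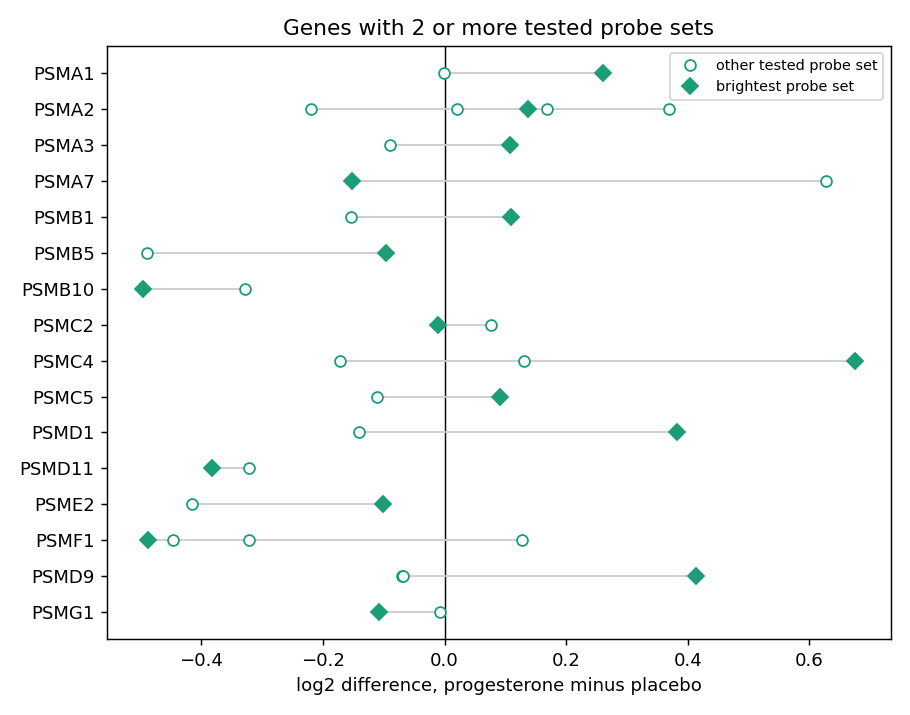
Log2 difference in progesterone minus placebo (horizontal axis) on each tested probe set of the 16 proteasome genes that have several. Diamonds are the brightest probe set of a gene and circles the others. The probe sets lie on 1 side of 0 for 5 genes and on both sides for the others, with PSMA7 (-0.15 and 0.63) and PSMC4 (0.68, 0.13 and -0.17) spread widest.

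Other genes of the pathway were not called either. Of 31 listed, 19 were on the array, all were tested, and 0 were called in any comparison. Against placebo, 8 were above 0 in estrogen, 9 in estrogen plus progesterone and 8 in progesterone, with medians of -0.03, -0.01 and -0.02. AKIRIN2, which brings proteasomes into the nucleus, was lower in progesterone than in placebo by -0.46 ± 0.15 (SE, limma adjusted p = 0.319), with no overlap. In estrogen it was at -0.04 and in estrogen plus progesterone at -0.06. BAG6, which escorts misplaced proteins to the proteasome, was at -0.33 ± 0.17 in progesterone, also without overlap. ZFAND5, which stimulates the proteasome, lay above placebo in progesterone without overlap, at 0.22 ± 0.14. So 1 of the 19 was separated above placebo in progesterone and 2 below it, against 7.41% and 7.86% of all probe sets. In estrogen PAAF1, a chaperone of the 19S ATPases, was separated above placebo, at 0.33 ± 0.20, and 0 of the 19 below it, against 3.56% and 3.98%. In estrogen plus progesterone 0 of the 19 were separated. USP14, a deubiquitinase that docks on the 19S particle, was at -0.53 in estrogen, -0.31 in estrogen plus progesterone and -0.93 in progesterone, and its unadjusted p exceeded 0.05 in each. Without the second placebo array it was 0.40 in estrogen and -0.004 in progesterone. NFE2L1, the transcription factor that raises subunit genes when the proteasome fails, was at -0.08, -0.16 and -0.28 in the same order, and ADRM1, a ubiquitin receptor of the 19S particle, at 0.08, 0.35 and 0.22.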

How the data were processed

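Total RNA of each tissue block was hybridised to 1 Affymetrix rhesus array, per the labels' protocols. The deposited intensity values, 1 per probe set, had been scaled by the authors: on each array the mean, trimmed by 2% at both ends, was 200.0. Their software is not named in the labels or files used. After removal of 99 controls from 52865 probe sets, intensities were floored at 4.99 (the 5th percentile), log2 transformed and quantile normalized, since array medians spanned log2 6.15 to 6.62. The 26383 probe sets with a mean at or above the median of all means (log2 6.31, intensity 79.5) were tested. Symbols came from the platform's annotation, which can be old.

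The limma 3.58.1 fit (lmFit and eBayes, R 4.3.3) used all 12 arrays, 1 mean per group, and 8 residual and 3.54 prior degrees of freedom, with two-sided tests. The number of animals limits precision, and 3 against 3 cannot go below p = 0.1 in an exact permutation test. Only the limma fit was tested on simulated data, with independent noise and planted differences larger than any reported here for a proteasome gene. The earlier steps and shifts between arrays were not part of that test. Plots were made in Python 3.11.15 (matplotlib 3.10.9).

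The members, gene lists and tests were chosen with earlier results of these data known. Values per array were set to be given for PSMC4 and, in each comparison, for up to 2 genes of lowest p in each direction with no overlap. Those of PSMA1, PSMA7, PSMB1, PSMB5, PSMB7, PSMD7 and PSMG4, and of the second probe sets of PSMC4, PSMA7 and PSME2, were added after they were seen, as were single-gene values without 1 array. The labels name no shared batch. From the data, replicate numbers were taken as possible pairs of estrogen plus progesterone with estrogen and with placebo. Every correlation between their deviations within a number was above 0.1 (0.142 to 0.507 with estrogen, 0.103 to 0.274 with placebo). Unmatched numbers also reached this, at 0.267 for estrogen array 3 with combined array 2 and 0.250 for estrogen array 2 with combined array 3. The other unmatched pairs of estrogen with the combined treatment lay below 0. A pairing by number is thus not established. The reported fit has no block. Alternatives were median alignment, the authors' scaling alone, another floor, other filters, array weights, a replicate block, fewer arrays or probe sets, and each array left out. Promoters were not analysed here.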

Additional observations from a re-analysis of the deposited data

Results flagged for a closer look

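On the second probe set of PSMA7, an alpha ring subunit, the difference that estrogen made ran in opposite directions without and with progesterone. All 3 estrogen arrays lay above the 3 placebo arrays, by 0.23 ± 0.15 (SE), while all 3 arrays of estrogen plus progesterone lay below the 3 progesterone arrays, by -0.32 ± 0.15. The test of the difference itself, the interaction, gave -0.55 at a limma adjusted p of 0.748 and an unadjusted p of 0.0219, so it did not pass. The brightest probe set of PSMA7 gave 0.13 without and 0.17 with progesterone, with an interaction of 0.05. The second has a name ending in s_at, given to probe sets that match more than 1 transcript, and was made from the same design sequence.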

How the results depend on the processing

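The count of proteasome probe sets called was 0 in every comparison under each of 10 alternatives and with each of the 12 arrays left out, where these could be run. PSMC4 stayed above placebo in all of them, by 0.48 to 0.66 in estrogen, 0.38 to 0.65 in estrogen plus progesterone and 0.55 to 0.76 in progesterone. Among 20 single-gene differences, 2 changed sign, both small: PSMC4 in estrogen plus progesterone against estrogen (-0.07) ranged from -0.164 to 0.064 when single arrays were left out, the upper end without the second combined array, and in estrogen against progesterone (-0.09) it was 0.076 under median alignment. The cause was not tested. With the replicate number as a block, PSMC4 differed from placebo by 0.51 in estrogen plus progesterone (limma adjusted p = 0.996931), and the block changed no call of a proteasome gene. Calls over all probe sets moved more: in progesterone against placebo there were 35, 20 with the block, 0 with only the arrays compared, 0 with only the brightest probe set of named genes, and 5 to 55 when single arrays were left out. PSMG3 and PSMF1 gave no value under the filter at the 75th percentile, and main effects, interaction and F test none with only the arrays compared.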
